A study of Mus musculus with 5 samples.

Results

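Semaphorins, ephrins and Slits are ligands that steer migrating cells and growing axons, and with their receptors they form the guidance genes described here. The members were all genes whose symbol names a semaphorin of classes 3 to 7, a plexin, neuropilin 1 or 2, an ephrin, an Eph receptor, a Slit or a Robo, with the brightest probe standing for each gene. These were 60 of the 17742 named genes on the array. A total of 69 probes carried their symbols, and 9 genes had more than 1 probe. Of 61 mouse symbols that fit the same pattern in the reference gene table, the single symbol without a probe here was the antisense transcript Plxna4os1. The members comprised 31 ligand genes (20 semaphorins, 8 ephrins and 3 Slits) and 29 receptor genes (9 plexins, 2 neuropilins, 14 Eph receptors and 4 Robos).

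The study compared knockdown of the long non-coding RNA Linc1405 with control cells during differentiation of mouse embryonic stem cells (ESCs) towards heart muscle. Each of 5 groups had 1 single-colour array: ESCs of the control genotype at day 0, knockdown and control mesoderm cells at day 4, and knockdown and control cardiomyocytes at day 10. All cells derived from mouse ESCs, for which the labels name the line 46C. ESCs grew on feeder cells, removed before harvest, in medium holding 15% serum and 1000 U/ml of the cytokine LIF. In both lines, day 4 cells had 0.2 ng/ml Bmp4 plus 5 ng/ml of Activin A and the same of VEGF, and day 10 cells 25 ng/ml FGF10, 10 ng/ml bFGF and 5 ng/ml VEGF. The sample names MES_1405KIpA and CM_1405KIpA mark the knockdown, and the sources used here do not give how that allele was made or whether the line is 1 clone.

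Levels below are log2 intensities after quantile normalization, with a floor of 6.64 (an intensity of 100). A difference is the log2 level on the first array minus that on the second, so a difference of 1 is 2-fold. A gene counts as higher or lower where the difference was at least 2-fold and the brighter array was at or above a filter at the 50th percentile (9.16). With 1 array per group there was no replicate spread and no test, and every difference describes a pair of arrays. The only error estimate was the SD of a single probe's difference, from pairs of probes for the same gene. It was 0.207 for knockdown against control at day 4 and 0.271 at day 10, but 0.612 for control day 4 against ESCs and 0.743 for control day 10 against control day 4. In bulk RNA, fewer cells of a type and less RNA per cell cannot be told apart.

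No named probe could be assigned to Linc1405, and the knockdown itself was therefore not checked here. The deposited medians ran from 344 to 745, and the day 10 knockdown array stood apart by its 1050 probes at or below 0, against 0 to 38 on the other 4 arrays. Of the fixed marker lists, those for pluripotency, primitive streak and cardiomyocytes followed the labels in their mean levels. The mean level of 5 measured pluripotency genes was 15.29 in ESCs and at most 10.44 on the other arrays, that of 8 primitive streak genes was 11.62 in knockdown and 12.42 in control cells at day 4, and that of 9 cardiomyocyte genes was 13.95 in knockdown and 15.02 in control cells at day 10. Single genes departed from these means. Eomes, of the primitive streak list, was at 12.15 in ESCs and 12.01 in control day 4 cells. Pou5f1, of the pluripotency list, was at 12.20 in ESCs and 11.53 in control day 10 cells. Day 10 cells also carried markers of other cell types. So did ESCs, where fibroblast genes averaged 10.41, against 8.65 in control day 4 cells. Of 4 fibroblast genes past the filter in that pair, 3 were lower at day 4 and 1 higher. Dcn, for example, was at 13.80 in ESCs and 8.94 in control day 4 cells, and Postn at 13.77 and 9.25. The part of feeder cells in the ESC levels was not tested.

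Class 3 semaphorins are secreted and bind neuropilins, which signal through plexins of the A and D types, while the other semaphorin classes here are held in the membrane and mostly bind plexins directly. Ephrins are membrane-bound ligands of the Eph tyrosine kinases, and binding can signal into both cells. Slits are large secreted proteins read by Robo receptors. In the embryo these systems guide axons and also shape vessels, somites and the outflow tract of the heart.

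In control cells the ephrin ligands were higher at day 4 than in ESCs as a whole family. All 8 ephrin genes had a difference above 0, and 7 of 8 were at least 2-fold higher. Among all 60 members 20 were higher and 6 lower, of 45 past the filter, where the background over all named genes was 12.8% higher and 13.9% lower. The median difference of the 60 members was 0.36, against 0.00 for all genes. By more than 2 times the between-probe SD (1.22), 18 were higher and 5 lower, where the background was 9.55% higher and 11.6% lower. The plot of the control course shows both steps for every member.

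Ephrin-A ligands sit on a lipid anchor and ephrin-B ligands span the membrane. Efnb2, an ephrin of arteries and somites, was at 12.79 in control day 4 cells, against 9.41 in ESCs, a difference of 3.38. Efna5 differed by 3.37, Efna1 by 3.06, Efnb3 by 2.77 and Efnb1 by 2.53. These 5 ligands were more than 4-fold higher, while Efna4 (1.77) and Efna2 (1.41) were more than 2-fold higher and Efna3 (0.83) was not.

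Both neuropilins and 3 of 4 A plexins, which receive secreted semaphorins, were at least 2-fold higher in the same comparison, and Plxna1 (0.11) was not. Nrp1, a neuropilin that also serves as a VEGF coreceptor in endothelium, was at 15.47 in control day 4 cells, against 10.13 in ESCs, a difference of 5.34 that no other member exceeded. Its second probe differed by 4.70. Nrp2 differed by 1.71 on its brighter probe, and its other probe was at the floor on both arrays. All 9 plexins had a difference above 0, and among the 8 that passed the filter 5 reached 2-fold: Plxna4 (4.28), Plxnd1 (3.22), Plxna2 (1.74), Plxna3 (1.41) and Plxnb1 (1.07). Plxnb1 was under 2-fold with loess centring (0.95), 75th percentile scaling (0.84) and quantile normalization of the pair only (0.98). With probes averaged, Nrp2 differed by 0.86, and Plxna4 by 2.14 but below the filter. Plxnd1 is the endothelial receptor of Sema3e. The second Plxna4 probe was at the floor on both arrays. The mean level of 12 endothelial markers was 11.40 in control day 4 cells, against 10.11 in ESCs. Of 10 past the filter 5 were higher, Kdr (5.76) by the most, and 1 lower, Pecam1 (-1.66). Primitive streak genes averaged 12.42 in control day 4 cells, against 8.86 in ESCs, with 7 of 8 higher. The part of these cells in the result was not tested.

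Semaphorins and Eph receptors went both ways. Sema6d, a membrane semaphorin that binds Plxna1 and is known from the developing chick heart, differed by 2.70 and Sema4c, a ligand of B plexins, by 2.26. Sema3d (1.77) and Sema3a (1.19) were the other semaphorins at least 2-fold higher, and Sema3a was under 2-fold with 75th percentile scaling (0.81). Lower at day 4 were Sema3c, by at least 2.69 because the day 4 array lay at the floor, Sema4a (-2.64), Sema5b (-1.56) and Sema4d (-1.21). The same number of semaphorin genes, 4, thus lay on each side of the 2-fold limit.

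Epha2, an Eph receptor present in mouse ESCs, was the member with the lowest difference: 8.69 in control day 4 cells, against 12.37 in ESCs, a difference of -3.67. Epha4, a receptor at somite boundaries, differed by -1.51. Ephb1 (1.56) and Ephb4 (1.43), the venous partner of Efnb2, lay on the other side. Slit2, at 10.83 in control day 4 cells against 10.35 in ESCs, and the Robo genes, with differences from -0.72 to 0.55, had no member at least 2-fold apart.

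**Figure D1:**
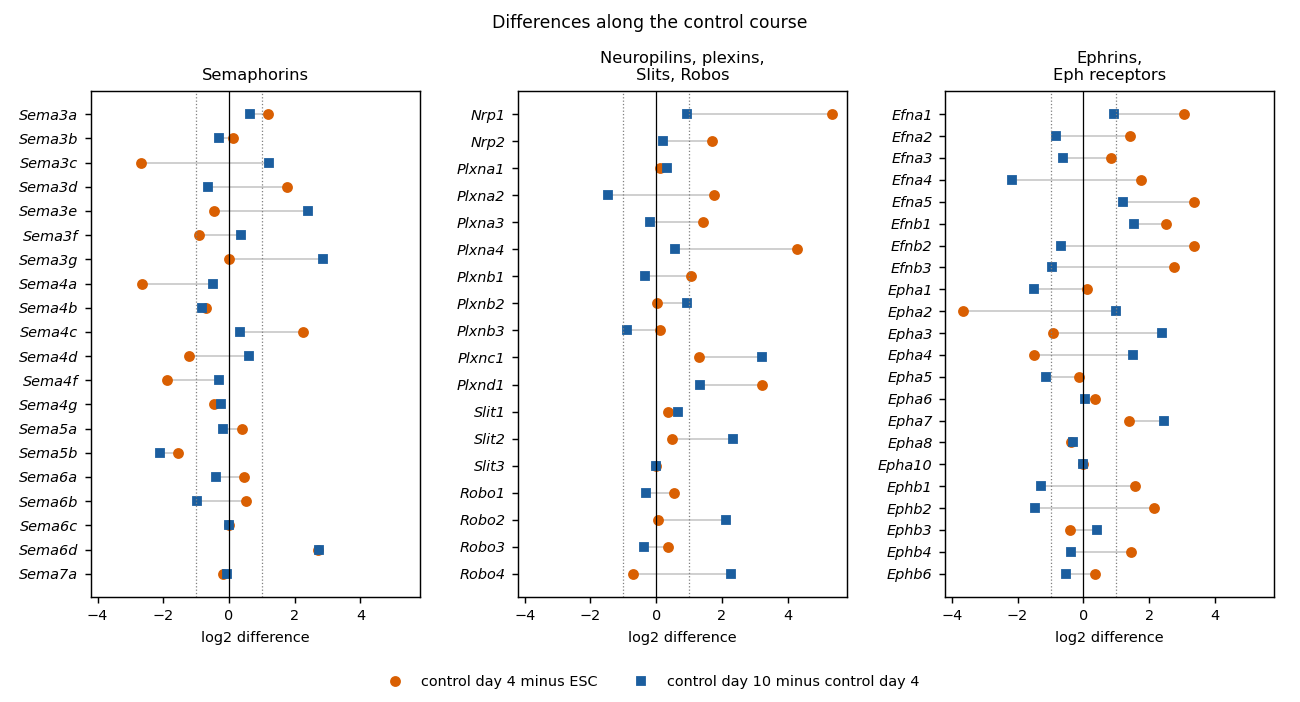
Log2 differences of the 60 guidance genes between control day 4 cells and ESCs (circles) and between control day 10 and control day 4 cells (squares), 1 row per gene, 1 array per group, with dotted lines at 2-fold. All ephrin circles lie above 0, Nrp1 reaches 5.34 and Epha2 -3.67, and the marks of Sema6d (2.70 and 2.73) nearly coincide.

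From day 4 to day 10 in control cells the members went both ways. Of 60 members 28 lay above 0 and 29 below, against 40.4% and 49.5% of all named genes. Every family except the neuropilins had at least 1 member 2-fold or more higher. Plexins, ephrins and Eph receptors also had members 2-fold or more lower. Of 46 members past the filter 13 were higher and 4 lower, where the background was 19.1% higher and 19.4% lower. By more than 2 times the between-probe SD (1.49), 11 were higher and 2 lower, where the background was 12.7% higher and 8.85% lower. The median difference was 0.00, as for all genes. As deposited, where the median of all genes was -0.72, 8 members were higher and 21 lower of 47 past the filter, where the background was 9.5% higher and 48.2% lower. Efnb1, Efna5, Epha4 and Plxnd1 then differed by 0.50 to 0.80, under 2-fold. Sema3g still differed by 1.97, but its level no longer passed the filter. As control day 4 cells enter both control comparisons, the values of the steps are given side by side and not related to each other.

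The ligands higher at day 10 were Sema3g (2.85), Sema6d (2.73), Sema3e (2.41), Slit2 (2.33), Efnb1 (1.53) and Efna5 (1.19). Slit2 was at 13.15 in control day 10 cells, against 10.83 in control day 4 cells. Sema3g, a semaphorin of arterial endothelium, was at 9.51 in control day 10 cells, against 6.65 at day 4, which is next to the floor.

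The receptors higher at day 10 were Plxnc1 (3.22), Epha7 (2.45), Epha3 (2.40), Robo4 (2.29), Robo2 (2.12), Epha4 (1.52) and Plxnd1 (1.33). In all, 3 EphA genes were thus higher, whereas Epha1 differed by -1.49. On their second probes Plxnc1 and Epha7 lay at the floor at day 4 and differed by at least 0.27 each, so the sizes of these differences rest on 1 probe. With the probes of a gene averaged, Epha7 differed by 1.36 and no longer passed the filter. Robo4, the Robo of endothelium, was at 12.13 in control day 10 cells, against 9.84 in control day 4 cells. The 12 endothelial markers averaged 13.12 in control day 10 cells, against 11.40 in control day 4 cells, with 0 and 1 at the floor. Of 11 past the filter 8 were higher and 1 lower, Kdr (-1.15). Other lists were higher in the same comparison, with means in control day 10 and control day 4 cells of 14.27 and 8.65 for fibroblast, 15.02 and 9.50 for cardiomyocyte, 13.27 and 9.40 for liver-type endoderm and 11.27 and 8.72 for epicardium genes. Past the filter, 6 of 6, 9 of 9, 7 of 8 and 5 of 8 genes of these lists were higher. The part of any of these cell types in the values of the guidance genes was not tested. Lower at day 10 were the ephrin Efna4 (-2.16), Epha1, Plxna2 (-1.47) and Ephb1 (-1.29).

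**Figure D2:**
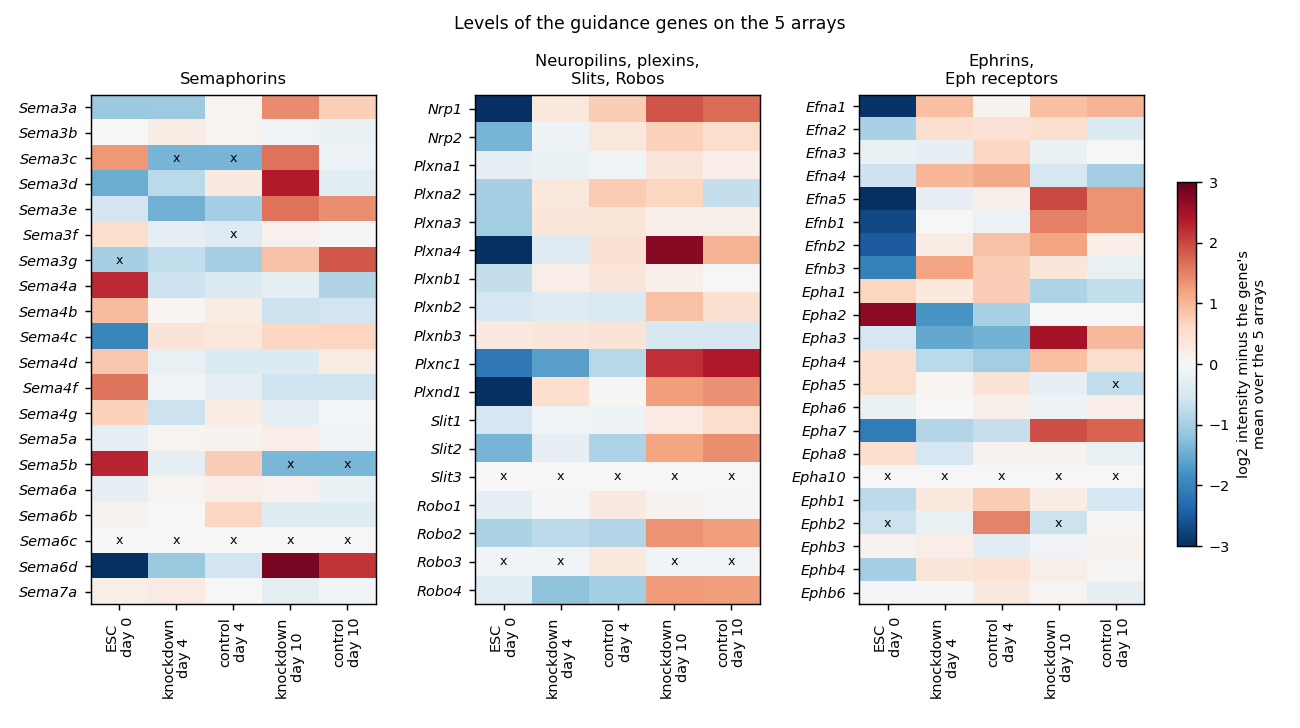
Log2 intensity of each guidance gene on the 5 arrays (columns) minus its own mean over them, with red for higher and blue for lower, capped at 3 either way, and a cross where the array lay at the floor of 6.64. The ephrins, Nrp1, Plxna4 and Plxnd1 are blue in ESCs, Epha2, Sema4a and Sema5b are red there, and Slit3, Sema6c and Epha10 lay at the floor on all 5 arrays.

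Knockdown against control at day 4 asked whether the guidance genes differ at the mesoderm stage. The members leaned lower in knockdown cells: 38 of 60 (63.3%) had a difference below 0, against 40.8% of all named genes, and the median difference was -0.15, against 0.00. As deposited the members' median was 0.01, but that of all genes was 0.20, and 42 of 60 members lay below it. Of 29 receptor genes, 23 were below 0 and 5 above, with a median of -0.19, while of 31 ligand genes 15 were below and 13 above, with a median of 0.00.

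At the 2-fold limit 0 members were higher and 2 lower, of 39 past the filter, where the background was 0.804% higher and 1.47% lower. Both were secreted class 3 semaphorins. Sema3a, which repels axons and neural crest cells through Nrp1, stood at 8.03 in ESCs, at 8.05 in knockdown and 9.23 in control cells at day 4, and at 10.56 in knockdown and 9.87 in control cells at day 10. The day 4 knockdown level was thus that of ESCs, and the day 4 difference was -1.18, a 2.26-fold lower level. Sema3d stood at 7.64 in ESCs, at 8.30 in knockdown and 9.40 in control cells at day 4, and at 11.49 in knockdown and 8.78 in control cells at day 10. Its day 4 difference was -1.10 on this probe and 0.06 on its other probe (9.46 in knockdown and 9.40 in control cells), so the probes disagree. The day 4 control levels of both genes were little above the filter of 9.16. With the values as deposited, Sema3a differed by -0.95 and Sema3d by -0.89, under the 2-fold limit, while the median of all genes shifted to 0.20.

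Smaller differences are set against probe error. By more than 2 times the between-probe SD (0.41), 5 members were higher and 13 lower of 39 past the filter, where the background was 5.16% higher and 5.67% lower. Among the lower members, Sema3a, Sema3d, Efna3 (8.56 in knockdown and 9.43 in control cells) and Ephb1 (8.99 and 9.46) passed the filter through control cells alone. The background genes met the same filter. The 13 lower members included both neuropilins, Nrp1 (-0.43) and Nrp2 (-0.48), and the A plexins Plxna4 (-0.86) and Plxna2 (-0.45), which form the receptors of class 3 semaphorins. Nrp1 was at 15.05 in knockdown and 15.47 in control cells, and its second probe differed by -0.52. The second probes of Nrp2 and Plxna4 lay at the floor on both day 4 arrays, so these differences rest on 1 probe each. Nrp1 and Plxna2 lay only just beyond the limit of 0.41.

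Among the other lower members were the semaphorins Sema4g (-0.87), Sema6b (-0.60) and Sema6d (-0.53), the ephrins Efna3 (-0.87) and Efnb2 (-0.64), and the Eph receptors Ephb1 (-0.47) and Epha1 (-0.45). The 5 higher members were Efna1 (0.78), Slit2 (0.67), Ephb3 (0.51), Plxnd1 (0.45) and Efnb3 (0.44). Efnb2 was at 12.15 in knockdown and 12.79 in control cells, whereas its receptor Ephb4 was at 14.01 in knockdown and 14.07 in control cells, a difference of -0.06. Kdr, the VEGF receptor of early mesoderm and a partner of Nrp1, differed by -0.92 at day 4, while the VEGF receptor Flt1 differed by 0.80. Of 12 endothelial genes 4 lay above 0 and 7 below, with a median of -0.09. Over the endothelial list 0 members were higher and 1 lower, Tie1 (-1.15), of 11 past the filter, with means of 11.21 in knockdown and 11.40 in control cells and 1 gene at the floor on each. Of 8 primitive streak genes, all past the filter, 0 were higher and 2 lower, with a median of -0.81. The part of either share in these values was not tested.

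Some wide differences lay below the filter. Ephb2, an Eph receptor of neural and endothelial tissue, was at 7.08 in knockdown and 8.78 in control cells at day 4, a difference of -1.70. Sema5b was at 7.72 in knockdown and 8.75 in control cells, a difference of -1.02. Both were under 9.16, where probe signals are dim, and are not counted.

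**Figure D3:**
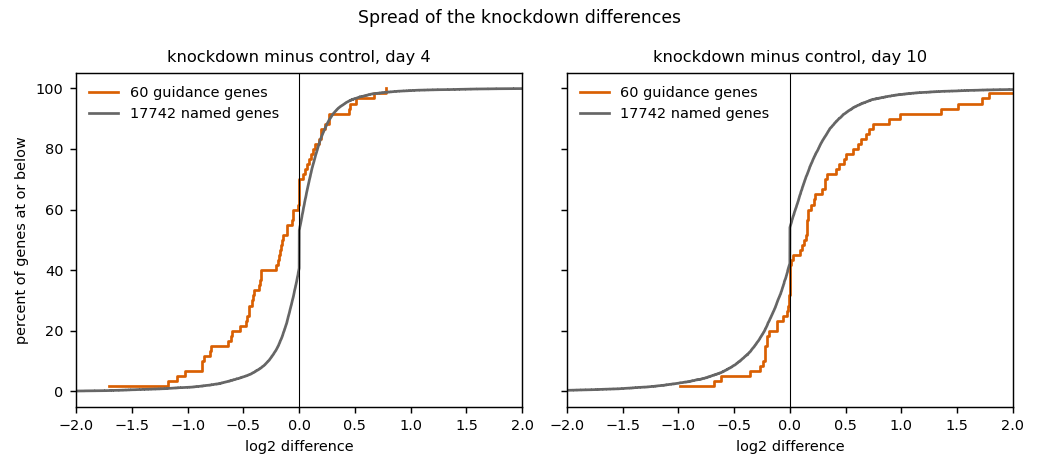
Cumulative percent of genes at or below each log2 difference, knockdown minus control at day 4 (left) and day 10 (right), for the 60 guidance genes and all 17742 named genes, 1 array per group, with the axis cut at 2 either way. The guidance curve lies left of the curve of all genes below 0 at day 4 (63.3% against 40.8% below 0) and right of it above 0 at day 10 (58.3% against 46.0% above 0), and Sema3d (2.72) falls beyond the right axis.

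At day 10 the lean was the other way. In knockdown cells 35 of 60 members (58.3%) had a difference above 0, against 46.0% of all named genes, with a median of 0.14 against 0.00. As deposited 40 of 60 lay above the median of all genes, which was then 0.37. Past the filter were 43 members, 5 of them 2-fold or more higher and 0 lower, where the background was 2.5% higher and 3.62% lower. The 5 were Sema3d (2.72), Sema3c (1.79), Plxna4 (1.72), Epha3 (1.51) and Plxna2 (1.36). They comprise a pair of class 3 semaphorins, a pair of A plexins and 1 Eph receptor. By more than 2 times the between-probe SD (0.54), 11 members were higher and 1 lower, where the background was 8.49% higher and 9.45% lower. Sema3d and Sema3c passed the filter through knockdown cells alone, and the 1 lower member, Sema3g, through control cells alone. The background genes met the same filter.

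Sema3d, a semaphorin that in mouse helps pattern the pulmonary veins, was 6.57-fold higher in knockdown cells on its brighter probe, at the levels given above. The control level on that probe (8.78) was below the filter. The second Sema3d probe read 8.69 in knockdown and 8.23 in control cells, a difference of 0.46 with both arrays below the filter. With the mean of both probes the difference was 1.59. The size of the Sema3d difference therefore rests on 1 probe.

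Sema3c, which in mouse guides neural crest cells into the cardiac outflow tract, stood at 9.33 in ESCs, lay at the floor in knockdown and control cells at day 4, and stood at 9.65 in knockdown and 7.86 in control cells at day 10. It was thus 3.45-fold higher in knockdown cells at day 10, from a dim control signal. The remaining class 3 genes differed by 0.69 (Sema3a), 0.23 (Sema3e), 0.15 (Sema3f), 0.09 (Sema3b) and -0.99 (Sema3g). Sema3g, at 8.52 in knockdown and 9.51 in control cells, was the one member lower by more than 2 times the probe SD, and it reached 2-fold lower with scaling to a common 75th percentile and with quantile normalization of the pair only. Sema3d, Sema3a, Sema3e and Sema3c follow each other in this order on chromosome 5 of the reference annotation, with 0, 3 and 15 protein-coding genes between neighbours, and differed at day 10 by 2.72, 0.69, 0.23 and 1.79.

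Plxna4, a plexin that signals for Sema3a with neuropilin 1, stood at 7.35 in ESCs, at 10.77 in knockdown and 11.63 in control cells at day 4, and at 13.91 in knockdown and 12.19 in control cells at day 10. The day 10 level was 3.29-fold higher in knockdown cells. Its second probe read 9.17 in knockdown and 7.53 in control cells at day 10, a difference of 1.64, so both probes gave the same direction and a like size.

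Plxna2, a plexin A of neural crest and outflow tract in mouse, stood at 9.89 in ESCs, at 11.19 in knockdown and 11.64 in control cells at day 4, and at 11.52 in knockdown and 10.17 in control cells at day 10. In control cells its day 10 level was close to that of ESCs, while in knockdown cells it was not below the day 4 level. Plxna1 and Plxna3, the other A plexins, differed by 0.16 and -0.01 at day 10. The B plexins differed by 0.42 or less, and Plxnc1 and Plxnd1 by -0.22 and -0.12.

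Epha3, an Eph receptor that binds ephrin-A ligands and that in mouse is needed for the endocardial cushions, stood at 9.95 in ESCs, at 8.91 in knockdown and 9.02 in control cells at day 4, and at 12.93 in knockdown and 11.42 in control cells at day 10. It was 2.85-fold higher in knockdown cells at day 10. Of the ephrins 6 of 8 lay above 0, with Efnb2 at 0.99, just under 2-fold (13.11 in knockdown and 12.12 in control cells), Efna2 at 0.89, Efna5 at 0.64 and Efnb3 at 0.57. The second Efna5 probe was at 12.71 in knockdown and 11.71 in control cells. Sema6d, at 14.13 in knockdown and 13.42 in control cells, differed by 0.71.

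Slits and Robos differed little at day 10. Slit2 was at 12.92 in knockdown and 13.15 in control cells, and Slit1 at 11.13 in knockdown and 11.40 in control cells. Robo1, Robo2 and Robo4 differed by 0.15, 0.11 and 0.03, and Slit3 and Robo3 lay at the floor on both arrays. All of these differences were within the probe SD of 0.271. Plxnb2, a receptor of Sema4c, was at 14.23 in knockdown and 13.81 in control cells.

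**Figure D4:**
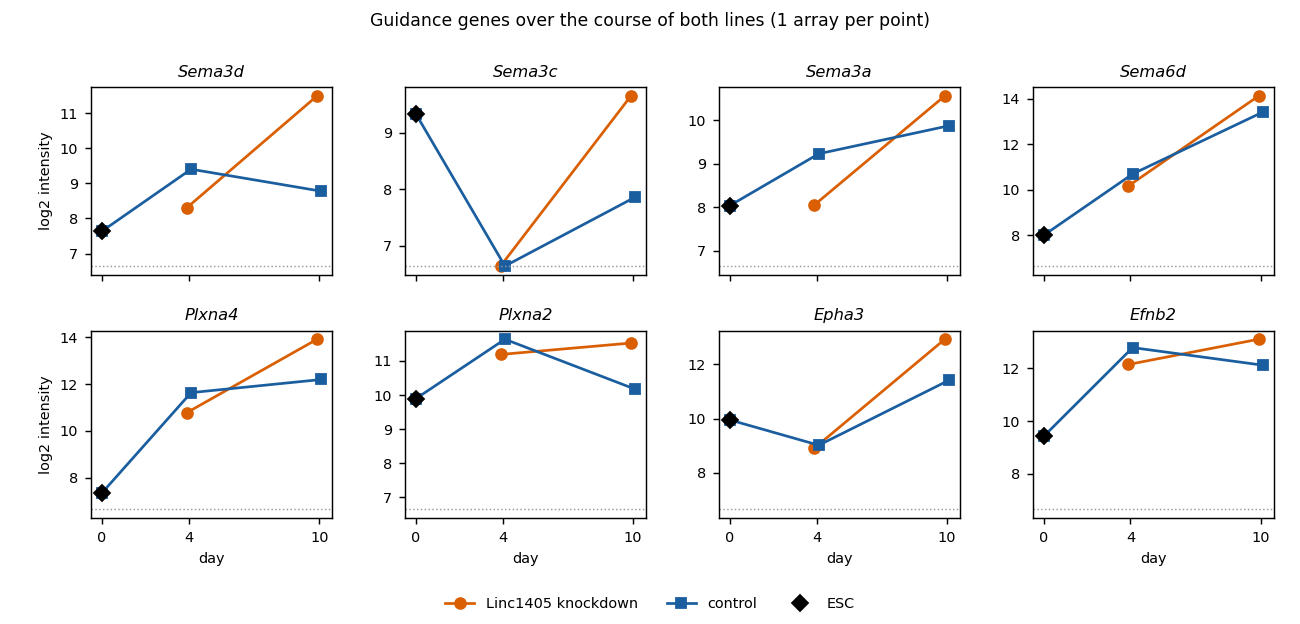
Log2 intensity of 8 guidance genes by day, with Linc1405 knockdown cells as circles, control cells as squares, ESCs as diamonds, 1 array per point, and the floor as a dotted line. In Sema3d, Sema3a, Sema6d, Plxna4, Plxna2 and Efnb2 the knockdown point lies below the control point at day 4 and above it at day 10, and in Sema3c and Epha3 the lines part only at day 10.

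The markers of the cell types that a day 10 culture can hold also differed. Of 10 epicardium genes 7 were higher and 0 lower in knockdown cells of 9 past the filter, with mean levels of 12.87 in knockdown and 11.27 in control cells and 0 at the floor, among them Wt1 (2.61), Upk3b (2.39) and Aldh1a2 (2.38). Cardiomyocyte genes averaged 13.95 in knockdown and 15.02 in control cells, with 1 higher and 6 lower of 9. The 1 higher was Tnnt2, at 15.94 in knockdown and 12.89 in control cells (3.05), the widest difference of that list. Liver-type endoderm genes averaged 10.87 in knockdown and 13.27 in control cells, with 0 higher and 6 lower of 8. Neural genes averaged 10.22 in knockdown and 9.60 in control cells, with 2 higher, Mapt (3.05) and Stmn2 (1.68), and 0 lower of 7 past the filter.

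Blood genes averaged 9.66 in knockdown and 10.43 in control cells, with 0 higher and 2 lower of 4 past the filter. Neural crest genes averaged 10.06 in knockdown and 10.24 in control cells, with 0 of 5 past the filter 2-fold apart and 1 at the floor on each array. Endothelial genes averaged 13.09 in knockdown and 13.12 in control cells, with Cldn5 (1.14) the 1 higher and 0 lower of 11. Fibroblast genes averaged 14.22 in knockdown and 14.27 in control cells, with 0 of 6 apart. The part of the epicardial, neural, cardiac, endodermal and blood shares in the Sema3d, Sema3c, Plxna4, Plxna2 and Epha3 values was not tested.

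The RefSeq promoter table (GRCm38.p6) had windows for 53 of the 60 members and for 4 of the 5 genes higher at day 10, Plxna4 being the other. These windows, from 250 bases before to 50 after the start, are shown because the genes were higher together. Because the study's title names the T-box factor Eomes, and GATA factors act in mesoderm and heart, both strands were searched for the T-box half-site AGGTGT (reverse ACACCT) and the GATA site AGATAA (reverse TTATCT). No matched letters were shared between the motifs, and capitals mark a match, reading 5′ to 3′ along the gene:
Sema3d, chr5:12382916-12383215, plus strand: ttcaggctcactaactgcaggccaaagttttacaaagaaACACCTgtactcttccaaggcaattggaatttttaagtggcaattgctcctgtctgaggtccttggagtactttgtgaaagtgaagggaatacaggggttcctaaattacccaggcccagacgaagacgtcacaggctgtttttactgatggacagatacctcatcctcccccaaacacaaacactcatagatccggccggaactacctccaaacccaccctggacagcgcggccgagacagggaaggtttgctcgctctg
Sema3c, chr5:17574566-17574865, plus strand: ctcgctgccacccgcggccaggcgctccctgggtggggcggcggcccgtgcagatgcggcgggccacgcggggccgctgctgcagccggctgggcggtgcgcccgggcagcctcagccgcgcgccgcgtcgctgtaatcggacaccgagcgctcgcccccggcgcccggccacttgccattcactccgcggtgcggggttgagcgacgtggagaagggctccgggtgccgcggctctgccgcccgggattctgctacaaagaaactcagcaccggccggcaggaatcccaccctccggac
Plxna2, chr1:194619579-194619878, plus strand: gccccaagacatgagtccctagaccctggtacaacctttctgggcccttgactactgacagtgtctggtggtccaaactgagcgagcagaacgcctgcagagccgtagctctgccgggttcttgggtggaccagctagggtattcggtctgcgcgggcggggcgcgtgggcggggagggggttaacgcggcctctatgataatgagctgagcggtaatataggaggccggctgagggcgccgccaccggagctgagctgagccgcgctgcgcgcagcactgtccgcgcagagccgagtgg
Epha3, chr16:63864126-63864425, minus strand: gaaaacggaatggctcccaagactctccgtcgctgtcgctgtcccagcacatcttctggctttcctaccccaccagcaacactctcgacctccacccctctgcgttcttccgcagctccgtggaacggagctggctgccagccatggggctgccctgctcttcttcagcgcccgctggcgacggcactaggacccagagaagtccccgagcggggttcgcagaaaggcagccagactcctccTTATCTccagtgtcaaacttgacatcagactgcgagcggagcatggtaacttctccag
Sema3d held 1 T-box half-site, at bases 40 to 45 of its window, and Epha3 held 1 GATA site, at bases 243 to 248. Sema3c and Plxna2 held no match. Of all 32851 promoter windows of this length, 13.7% held the T-box letters and 11.2% the GATA letters, and of 69 windows of members 10.1% and 4.35% did. A match is a description of the letters and not a site. The windows also differed in base composition, with 8 CpG pairs in that of Sema3d, 42 in Sema3c, 25 in Plxna2 and 18 in Epha3.

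**Figure D5:**
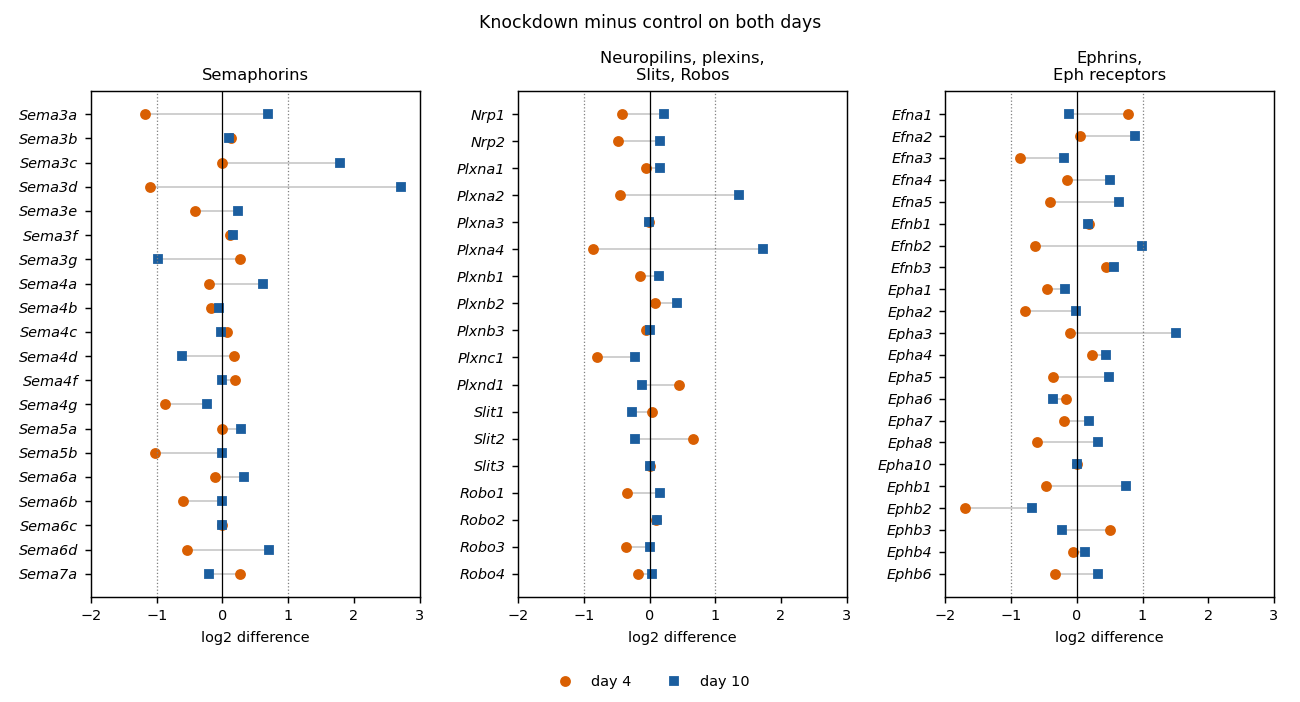
Log2 differences of the 60 guidance genes, knockdown minus control, at day 4 (circles) and day 10 (squares), 1 row per gene, 1 array per group, with dotted lines at 2-fold. Sema3d, Plxna4, Sema3a, Plxna2 and Efnb2 have their circle below 0 and their square above it, Slit2 and Efna1 the reverse, and Ephb2 (-1.70) was below the filter.

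Across the 2 days, 6 of the 35 members past the filter on both were lower at day 4 and higher at day 10, each by more than 2 times the probe SD, where the background was 0.904%, and 0 went the other way, where it was 0.548%. They were Sema3d, Sema3a, Sema6d, Efnb2, Plxna4 and Plxna2, which are ligands and A plexins. For Sema3d both sides rest on its brighter probe. Its second probe met neither limit, with values of 0.06 (day 4) and 0.46 (day 10). The day 4 side of Plxna4 also rests on 1 probe, as its second probe lay at the floor on both day 4 arrays. The filter asks only that the brighter array pass. Sema3d passed it through control cells alone at day 4 (9.40) and through knockdown cells alone at day 10 (11.49). Sema3a passed it at day 4 through control cells alone (9.23). The background genes met the same filter. The difference between the days was not tested.

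Ligands and receptors known as partners were set side by side. For the secreted class 3 ligands, knockdown cells at day 10 had higher Sema3d and Sema3c and higher Plxna4 and Plxna2, while Nrp1 (0.22) and Nrp2 (0.16) differed by less than the probe SD. At day 4 the differences of Sema3a, Sema3d, Nrp1, Nrp2, Plxna4 and Plxna2 were all below 0 on the brighter probe. For Sema3e and Plxnd1 the differences were -0.42 and 0.45 at day 4 and 0.23 and -0.12 at day 10, and for Efnb2 and Ephb4 -0.64 and -0.06 at day 4 and 0.99 and 0.12 at day 10. On both days the Efnb2 difference was larger in size than that of Ephb4.

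Membrane semaphorins were set beside their plexins. Sema6d and Plxna1 differed by -0.53 and -0.06 at day 4 and by 0.71 and 0.16 at day 10. Sema7a and Plxnc1 differed by 0.26 and -0.80 at day 4 and by -0.20 and -0.22 at day 10, with Plxnc1 below the filter at day 4. Sema4d and Plxnb1 differed by 0.18 and -0.15 at day 4 and by -0.62 and 0.15 at day 10, with Sema4d below the filter on both days.

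EphA receptors and their ephrin-A ligands can pair in many combinations. At day 4, 7 of 9 EphA genes lay below 0 and 1 above, with a median of -0.19, where 40.8% of all named genes lay below 0. Past the filter at day 4 were only 2 of the 9, Epha1 (-0.45) and Epha4 (0.23), which lay on opposite sides of 0. At day 10 3 lay below and 5 above, with a median of 0.19, where 46.0% of all named genes lay above 0, and 4 of the 9 passed the filter. The ephrin-A ligands had a median of -0.14 at day 4 and 0.50 at day 10. Epha10 lay at the floor throughout, and Epha5, Epha6 and Epha8 were below the filter on every array. The EphA receptors that could be read on some array were thus Epha1, Epha2, Epha3, Epha4 and Epha7, with Epha2, Epha3 and Epha7 below the filter on both day 4 arrays.

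Other genes of the guidance pathways came from lists by role. Of 19 netrin, Unc5, repulsive guidance molecule and Flrt genes, 11 passed the filter at day 4 and 10 at day 10. Flrt3, an adhesion protein that binds Unc5 receptors and works with Robo1, was at 11.26 in knockdown and 12.56 in control cells at day 4 (-1.29) and at 14.39 in knockdown and 13.03 in control cells at day 10 (1.36). Flrt1 was higher on both days (1.48 and 1.28) and Flrt2 at day 10 (1.49). The 3 Flrt genes were the members of this list both past the filter and at least 2-fold apart. At day 4 this made 1 higher and 1 lower, where the background was 0.804% higher and 1.47% lower. At day 10 it made 3 higher and 0 lower, where the background was 2.5% and 3.62%. Below the filter at day 10, Ntn1 differed by -1.76 and Unc5a by -1.36.

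Partners inside the cell and coreceptors follow. Over all genes past the filter at day 10, 2.5% were higher and 3.62% lower, against which these counts are read. Of 16 measured plexin effectors, among them Farp and Mical genes, 15 passed the filter on each day and 0 were 2-fold apart. Of 20 Eph effectors 0 of the 13 past the filter were apart at day 4, and of the 16 past it at day 10 2 were lower and 0 higher, the Rac exchange factor Tiam1 (-1.32) and the ephrin-B adaptor Grip2 (-1.49). Of 11 Robo effectors 0 of 9 past the filter were apart at day 4, and 1 of 10 was lower at day 10, the Slit-Robo GTPase activator Srgap1 (-1.33). Of 14 semaphorin coreceptors and cofactors 0 of 7 past the filter were apart at day 4, while of 9 at day 10 Mst1r (1.55) was higher and Itga1 (-1.02) lower.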

How the data were processed

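Total RNA of 5 mouse cultures was measured on single-colour Cy5 arrays. The authors deposited 1 table of probe intensities on a linear scale for 26423 probes. Per the submitters' processing notes, Agilent Feature Extraction 10.7.1.1 was used; the sources used here name no normalization, and medians differed between arrays. Intensities were quantile normalized over the 5 arrays, floored at an intensity of 100 and put on a log2 scale. Detection and saturation marks were not used here. Of the probes, 20377 carried 1 gene symbol, 0 several, and 6046 were unnamed. Older symbols were replaced with the help of the GRCm38.p6 gene table (18213 current, 2126 by synonym, 38 kept). Each gene was represented by the probe of highest mean. Differences were taken between pairs of arrays with Python 3.11.15, numpy 2.4.6, pandas 2.3.3 and statsmodels 0.14.6 (loess). The between-probe SD came from the 2 brightest probes of a gene, both past the filter (1034 genes at day 4, 1075 at day 10), divided by the square root of 2. It covers probe error, not differences between cultures, and precision is limited by having so few arrays. The steps were tested on simulated data.

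The members and lists were chosen with earlier results of these data known. Named were all members 2-fold apart in a knockdown comparison, up to 6 members at each end of a control comparison, fixed ligand-receptor pairs, the brightest member of each family, and up to 3 list genes in each direction. Other members named passed 2 times the probe SD or are counted in full. The alternatives tried were loess centring (span 0.3, 3 iterations), 75th percentile scaling, no normalization, floors of 50 and 200, a filter dropped or raised to the 75th percentile, a 4-fold limit and averaging the probes of a gene. Quantile normalization of the pair only was chosen after seeing the data.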

Additional observations from a re-analysis of the deposited data

Results flagged for a closer look

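6 members lay on opposite sides of 0 in knockdown against control at the 2 days, each by more than 2 times the between-probe SD (0.41 at day 4 and 0.54 at day 10) and past the filter on both days. Sema3d differed by -1.10 at day 4 and 2.72 at day 10, but its second probe by 0.06 and 0.46. The brighter Sema3d probe passed the filter through control cells alone at day 4 (9.40) and knockdown cells alone at day 10 (11.49). Plxna4 differed by -0.86 and 1.72, with its second probe at the floor on both day 4 arrays. Sema3a differed by -1.18 and 0.69, Plxna2 by -0.45 and 1.36, Efnb2 by -0.64 and 0.99, and Sema6d by -0.53 and 0.71. At day 4 Sema3a passed the filter through control cells alone (9.23). All 6 were lower at day 4 and higher at day 10, among 35 members past the filter on both days, and 0 of the 35 went the other way. Over all named genes the background was 0.904% lower then higher (89 of 9849) and 0.548% higher then lower (54 of 9849). By sign alone, over all 60 members, 26 (43.3%) were below 0 at day 4 and above 0 at day 10, against 3549 of 17742 named genes, and 10 (16.7%) the reverse, against 20.9%. The day 4 and day 10 differences share no array, each rests on 1 array per group, and the difference between the days was not tested.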

How the results depend on the processing

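No paired analysis was possible because each group has 1 array, all with the replicate number 1. Counts of members moved by more than 1.5 times in these cases. As deposited, 0 members were lower in knockdown cells at day 4 and 12 higher at day 10, and between control day 10 and day 4 8 were higher and 21 lower, with a median of members minus that of all genes of 0.17. The median of all genes was then 0.20 and 0.37 for knockdown against control at days 4 and 10, 0.17 for control day 4 against ESCs and -0.72 for control day 10 against day 4. Relative to these shifts the members' medians were -0.19 and 0.22 in the knockdown comparisons. At day 10, 1 member (Sema3g) became lower in knockdown cells with 75th percentile scaling, and likewise 1 with quantile normalization of the pair only. Over all named genes, the values as deposited gave 1166 higher and 177 lower for knockdown at day 10 (272 and 394 after normalization), 2256 and 1206 for control day 4 against ESCs (1447 and 1574), and 1118 and 5671 for control day 10 against day 4 (2182 and 2214; loess 2563 and 1601). Without a filter 4 of 60 members were lower in knockdown cells at day 4 and 7 of 60 in control day 10 against day 4. The shares over all genes were 1.35% and 14.4%. A filter at the 75th percentile left 0 lower at day 4 and 2 higher at day 10 in knockdown cells, 9 higher and 2 lower in control day 4 against ESCs, and 7 higher and 1 lower in control day 10 against day 4. Over all genes the shares there were 0.569% lower at day 4 and 1.94% higher at day 10 for knockdown, 10.6% higher and 761 of 6364 genes lower for control day 4, and 18.6% and 19.4% for control day 10. At a 4-fold limit the members' counts were 0 lower at day 4 and 1 higher at day 10 for knockdown, 10 higher and 3 lower for control day 4, and 1 lower for control day 10, with shares over all genes of 0.168% and 0.579%, 3.99% and 5.83%, and 4.05%. The mean of all probes left 1 lower in knockdown cells at day 4, without Sema3d. All other counts were within 1.5 times. Of 350 values of single called genes under the alternatives for normalization, floor and probe, 323 moved by less than the between-probe SD, 27 by more, and 0 changed sign. Limits and filters change counts by construction, and where another setting moved a value the cause was not tested.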
